A study of Mus musculus with 2 samples.

Results

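The 64 genes described here are the classical cadherins and protocadherins that could be counted in sorted mouse hypothalamic cells. They are all gene symbols of the merged count table that begin with Cdh and a digit or with Pcdh and that had at least 200 UMIs, unique molecular counts of captured transcripts, summed over all cells. Of 91 symbols with these names among 20210 genes, 64 reached the minimum and 27 did not. Pcdhb15 with 200 UMIs and Pcdhgb5 with 201 were just inside it, and Pcdha12 with 198 and Pcdhga8 with 195 were just outside. The 64 comprise 3 type I classical cadherins, 11 type II classical cadherins, Cdh13, 4 δ1-protocadherins, 5 δ2-protocadherins, 2 other non-clustered protocadherins and 38 clustered protocadherins (6 α, 20 β and 12 γ). Beyond this total the rule used no measured value, but it was set with earlier results of these data known.

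The cells were tdTomato-positive cells sorted at postnatal day 10 from the arcuate nucleus and the adjoining median eminence of CD-1 mice. The dHet library was a pool of 5 mice of genotype Ins2-Cre;tdTomato+/-;Irx3/5+/-, heterozygous at the transcription factor genes Irx3 and Irx5. The control library was a pool of 5 mice of genotype Ins2-Cre;tdTomato+/-. Cre under the Ins2 promoter marked the cells in both groups, so cells in which this driver was never active were sorted away. With 1 library for each genotype, no difference between genotypes can be tested or told apart from a difference between the pools.

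Classical cadherins join neighbouring cells by calcium-dependent binding of like molecules, and their cytoplasmic tails bind β-catenin and p120-catenin. δ-protocadherins are single genes with weaker adhesive activity whose tails bind protein phosphatase 1 (δ1) or the WAVE actin regulator (several δ2 members). Clustered protocadherins lie in tandem arrays, individual neurons use small sets of them by promoter choice that needs CTCF and cohesin, and the resulting combinations let a neuron tell its own branches from those of others. In the developing brain the combination of classical cadherins often marks nuclei and layers.

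After doublet removal, 3918 dHet cells with 71295165 UMIs and 3456 control cells with 62594243 UMIs remained, with medians of 17112 and 16450 UMIs per cell. Irx3 had 42 UMIs (0.589 CPM, UMIs per 1000000 UMIs of the cells summed) in dHet cells and 92 UMIs (1.47 CPM) in control cells, a ratio of 0.401 (95% interval 0.271 to 0.583). Irx5 had 106 UMIs (1.49 CPM) in dHet cells and 180 UMIs (2.88 CPM) in control cells, a ratio of 0.517 (0.403 to 0.661). These 3′ tags can lie outside the altered part of the genes and do not check the genotype. Cells were clustered without any of the cadherin or protocadherin genes and named from markers. There were 2907 dHet and 2253 control neuron-like cells, 427 and 419 astrocyte-like cells, and 279 and 377 tanycyte-like cells, tanycytes being the radial glia-like cells that line the third ventricle. Smaller classes were oligodendrocyte precursor-like (77 dHet, 92 control), oligodendrocyte-like (39 and 30), ependymal-like (25 and 28) and cycling cells (34 and 37). All 12 fixed neuron markers were detected in the neuron-like class of both libraries, at a summed 15546 CPM in dHet and 14751 CPM in control cells, against 565 and 409 CPM in astrocyte-like cells. Intervals throughout cover counting error only.

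RefSeq lists a promoter for 20 members outside the α, β and γ arrays (23 start sites, GRCm38.p6). A stretch of 250 bases before each RefSeq start was searched on both strands for ACANNTGT, the palindromic site that Iroquois proteins bind in Drosophila, and for the E-box CANNTG, which is contained in it. The Iroquois letters occurred before 1 of the 20 members, Cdh10, which is 1 of the 23 promoters, and in 6.31% of all 32851 promoters. The E-box letters occurred before 11 of the 20 members, in 12 of the 23 promoters, and in 66.2% of all promoters. The Cdh10 stretch (chr15:18820079-18820328, plus strand) is shown as the member promoter with the Iroquois letters, both matches being in capitals. The Pcdh19 stretch (chrX:133688994-133689243, minus strand) is shown because Pcdh19 was 1 of 2 members at least 2-fold higher in neurons than in the next class, with its single E-box in capitals.
Cdh10: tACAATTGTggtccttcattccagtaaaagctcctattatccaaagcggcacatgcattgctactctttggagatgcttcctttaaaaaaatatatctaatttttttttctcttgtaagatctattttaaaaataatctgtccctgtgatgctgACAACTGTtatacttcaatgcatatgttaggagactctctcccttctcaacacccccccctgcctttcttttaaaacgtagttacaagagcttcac
Pcdh19: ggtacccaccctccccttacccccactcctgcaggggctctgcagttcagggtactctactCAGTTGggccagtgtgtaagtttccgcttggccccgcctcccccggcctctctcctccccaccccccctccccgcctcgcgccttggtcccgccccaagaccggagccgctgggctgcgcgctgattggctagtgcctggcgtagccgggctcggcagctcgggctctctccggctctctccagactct
These matches are letters in a window and say nothing of binding. In GENCODE annotation 13 of the 23 windows, those of Cdh10 and Cdh15 among them, overlap the span of their own gene, whose annotated start lies further upstream.

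Across classes, different members led in neurons, astrocytes, tanycytes and oligodendrocyte precursors, and 33 of the 64 had the same leading class in both libraries. Of the 64 members, 11 were highest in neurons in both libraries (17.4% of the 13359 genes with at least 200 UMIs were), 7 in astrocytes (9.01% of all genes), 11 in oligodendrocyte precursors (6.65%) and 3 in tanycytes (4.46%). Of the 11 in oligodendrocyte precursors, 8 were clustered members with only 4 to 14 UMIs in dHet and 3 to 26 UMIs in control precursors. Another 1, Pcdhgb4, was highest in ependymal cells (14.4%), and 31 were highest in a different class in each library (34.3% of all genes). Few of these differences were large. With 5 CPM added to each level, 2 of 64 members were at least 2-fold above the next class in both libraries, where 14% of all genes were. With coarser clusters (Leiden resolution 0.5) 8 were. In the barcodes of the unmerged matrices (at least 500 genes and at most 20% mitochondrial UMIs) Pcdh15, Cdh12 and Cdh2 were past the limit and Pcdh19 was not.

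The pair past that 2-fold limit were both neuronal. Pcdh19, an X-linked δ2-protocadherin whose human counterpart is mutated in an epilepsy that mainly affects females, stood at 159 CPM in dHet neurons and 173 CPM in control neurons. The next class, cycling cells, had 52.6 CPM in the dHet and 56.4 CPM in the control library. Cdh12, a type II cadherin, had 16.8 CPM in dHet and 16.2 CPM in control neurons, with next classes at 2.77 and 5.31 CPM. The neuronal group further held the type I cadherins Cdh4 (R-cadherin) and Cdh15 (M-cadherin), the type II cadherins Cdh8, Cdh9 and Cdh18, the δ-protocadherins Pcdh7 and Pcdh8, and Pcdha9 and Pcdhgc4 of the clusters. Pcdh7 had 210 CPM in dHet and 231 CPM in control neurons, with oligodendrocytes close behind at 201 and 219.5 CPM. Pcdhgc4, a γ isoform that mouse interneurons need for survival, had 19.6 CPM in dHet and 19.0 CPM in control neurons. Oligodendrocyte precursors were next for Pcdhgc4 at 16.3 and 15.9 CPM, and astrocytes had 10.6 and 15.5 CPM.

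Astrocyte-like cells led for the type II cadherins Cdh10, Cdh11 and Cdh20 and for the δ2-protocadherin Pcdh10, which recruits the WAVE complex. Cdh10 had 158 CPM in dHet and 195 CPM in control astrocytes, with oligodendrocyte precursors next at 81.3 and 66.4 CPM. Its level was 20.6 CPM in dHet and 25.6 CPM in control neurons. Cdh11, first known from bone-forming cells, had 136 CPM in dHet and 187 CPM in control astrocytes and was lowest in neurons, at 21.8 and 25.5 CPM. Pcdh10 had 377 CPM in dHet and 431 CPM in control astrocytes. Cdh20 had 48.5 CPM in dHet and 60.5 CPM in control astrocytes, with oligodendrocytes next at 42.5 and 41.4 CPM. The leading class thus differed within the type II subfamily, with Cdh8, Cdh9, Cdh12 and Cdh18 leading in neurons and Cdh6 in oligodendrocyte precursors. Some of these leads were small. Cdh8 had 23.1 CPM in dHet and 24.2 CPM in control neurons, with oligodendrocyte precursors next at 18.1 and 17.25 CPM. Cdh6 had 66.8 CPM in dHet and 65.0 CPM in control precursors, with cycling cells next at 52.6 and 58.6 CPM. Tanycyte-like cells led for Cdh2 (N-cadherin, the main adherens junction cadherin of the neuroepithelium), at 355 CPM in dHet and 358 CPM in control tanycytes, with astrocytes next at 187 and 196 CPM. Pcdh17, a δ2 member that acts at synapses, had 33.6 CPM in dHet and 32.6 CPM in control tanycytes, against 375 and 387 CPM in neurons.

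Oligodendrocyte precursor-like cells led for Pcdh15, known as a tip-link protein of inner-ear hair cells, and for Pcdh11x, an X-linked δ1 member. Pcdh15 had 457 CPM in dHet and 365 CPM in control precursors, with cycling cells next at 222 and 196 CPM. Pcdh11x had 401 CPM in dHet and 415 CPM in control precursors, with cycling cells again next at 222 and 250 CPM. The sum of all 64 members was highest in this class as well, at 3105 CPM in dHet and 2774 CPM in control cells, and was 509 and 550 CPM in ependymal-like cells. Mature oligodendrocyte-like cells led for no member in both libraries, where they did for 7.71% of all genes. Without a leading class in common were Cdh7, Cdh13, Cdh22, Pcdh1, Pcdh9, Pcdh17, Pcdh20 and 24 clustered members. Pcdh9, a δ1 member, had 144 CPM in dHet and 142 CPM in control neurons, 205 and 241 CPM in astrocytes, and 302 and 276 CPM in oligodendrocyte precursors. Cdh22, the type II member with the most UMIs, had 41.5 CPM in dHet and 39.2 CPM in control neurons. Tanycytes, its highest class in the dHet library, had 56.6 CPM in dHet and 37.8 CPM in control cells, and astrocytes 28.7 and 29.9 CPM.

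**Figure D1:**
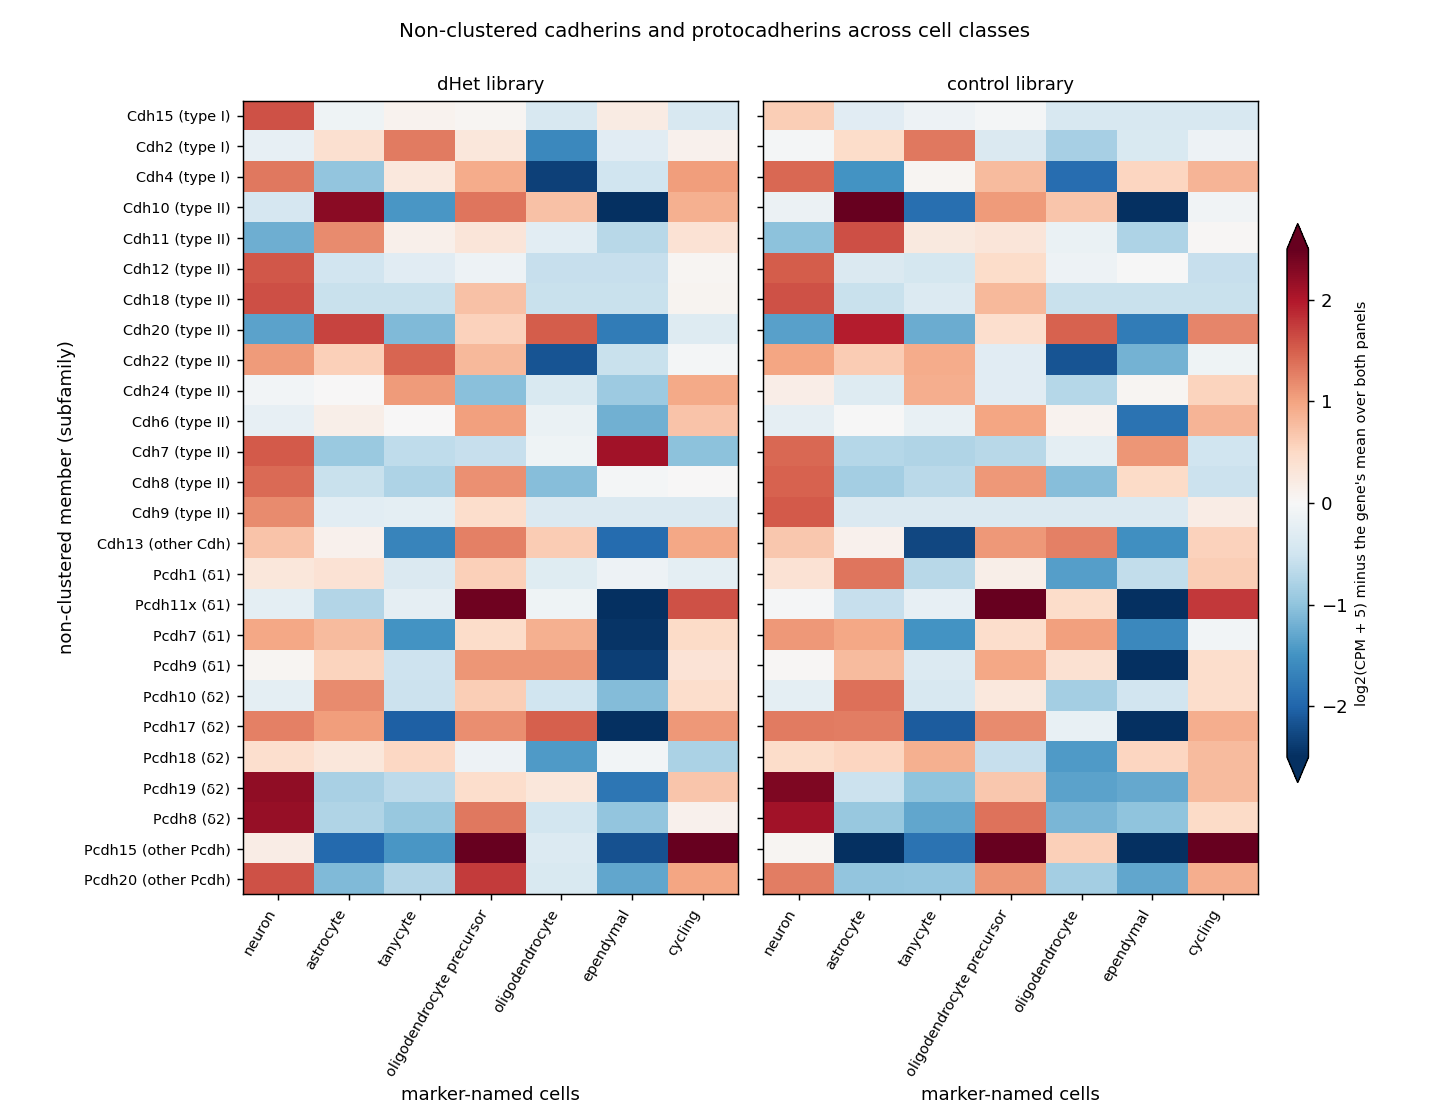
Levels of the 26 non-clustered members (rows, with subfamily) in 7 marker-named cell classes (columns), dHet library left and control library right. Colour is log2(CPM + 5) minus the mean of the gene over both panels. Cdh10 and Cdh11 are reddest in astrocytes, Pcdh11x and Pcdh15 in oligodendrocyte precursors, and Pcdh19 in neurons, in both panels.

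Among 12 neuron types with at least 20 cells in each library, the Agrp/Npy type held the lowest level of many non-clustered members. Of the 64 members, 9 were highest in ventromedial-like neurons in both libraries, where 11.7% of all genes were, a share close to that of the members. These were Cdh4, Cdh7, Cdh11, Cdh13, Cdh24, Pcdh1, Pcdh8, Pcdh18 and Pcdhb22. Kiss1/Tac2 neurons led for 5 (4.15% of all genes): Cdh8, Cdh20, Pcdh10, Pcdh11x and Pcdhb2. At least 2-fold over the next type in both libraries were 2 of 64 members, where 1.86% of all genes were. Cdh7 stayed past the limit under each alternative tried, and Pcdh11x was not past it with coarser clusters, in the matrices' barcodes, with cells weighted equally or with 20 CPM added.

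Cdh7, a type II cadherin, was past that limit in the ventromedial type. It had 102 CPM in dHet and 76.9 CPM in control ventromedial neurons, and the next types stood at 36.8 CPM (Kiss1/Tac2, dHet) and 23.3 CPM (Ghrh/Th/Gal, control). Its lowest level was in Agrp/Npy neurons, at 1.85 and 3.78 CPM. Pcdh11x was past the limit in Kiss1/Tac2 neurons, the kisspeptin cells of the arcuate nucleus, with 212 CPM in dHet and 237 CPM in control cells. The next levels were 99.1 CPM (Vip/Avp suprachiasmatic, dHet) and 113 CPM (ventromedial, control).

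Cdh13 (T-cadherin, a lipid-anchored cadherin that binds adiponectin) came close to the limit, with 329 CPM in dHet and 347 CPM in control ventromedial neurons and folds over the next type of 1.84 and 2.03. Pcdh8, an activity-regulated δ2-protocadherin also called arcadlin, had 171 CPM in dHet and 135 CPM in control ventromedial neurons, with folds of 2.10 and 1.64. Both were at their lowest in Agrp/Npy neurons, at 15.5 CPM in dHet and 12.9 CPM in control cells for Cdh13 and at 7.28 and 7.56 CPM for Pcdh8. Pcdh10 led in Kiss1/Tac2 neurons with 358 CPM in dHet and 326 CPM in control cells. Cdh8 led there with 82.4 CPM in dHet and 73.3 CPM in control cells. The other types led for fewer members. Suprachiasmatic neurons led for Cdh2, Pcdhb14, Pcdhgb4 and Pcdhga12 (8.68% of all genes), Ghrh/Th/Gal neurons for Pcdh9 and Cdh9 (4.1%), and Trh/Tac1 neurons for Cdh18 and Pcdhga11 (1.85%). Crabp1 neurons led for Cdh10 (1.88%), Pthlh/Otp neurons for Pcdh19 (3.41%) and Vgll2/Cartpt neurons for Cdh6 (1.4%). In suprachiasmatic neurons Cdh2 had 180 CPM in the dHet and 202 CPM in the control library. The remaining 38 members, 32 of them clustered, had a different leading type in each library, as had 51.9% of all genes.

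Agrp/Npy neurons, which drive feeding, were the lowest of the 12 types in both libraries for 12 of the 26 non-clustered members, where 8.35% of all genes were. The 12 were Cdh2, Cdh4, Cdh7, Cdh8, Cdh12, Cdh13, Cdh24, Pcdh8, Pcdh10, Pcdh11x, Pcdh18 and Pcdh19. Pcdh19 had 118 UMIs (13.6 CPM) in dHet and 59 UMIs (11.7 CPM) in control Agrp/Npy neurons, while its next lowest type, Trh/Tac1, had 43.9 and 37.9 CPM. Pcdh11x had 16 UMIs (1.85 CPM) in dHet and 11 UMIs (2.19 CPM) in control Agrp/Npy neurons. The sum of the 26 non-clustered members was 861 CPM in dHet and 739 CPM in control Agrp/Npy neurons, below every other type, and 2830 and 3129 CPM in ventromedial neurons, above every other type. Leaving the 10 most abundant genes of each type out of its total gave 950 and 807 CPM in Agrp/Npy neurons and 3142 and 3364 CPM in ventromedial neurons.

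Pcdh20 ran the other way. It was highest in Agrp/Npy neurons (6.5% of all genes), with 125 CPM in dHet and 87.2 CPM in control cells, and the next type, Ghrh/Th/Gal, had 43.9 and 46.0 CPM. Its lowest level was in Sst neurons (0.951% of all genes), at 1.64 CPM in dHet and 3.51 CPM in control cells. Vip/Avp suprachiasmatic neurons were lowest for 6 other non-clustered members in both libraries (10.8% of all genes): Cdh9, Cdh10, Cdh11, Cdh18, Pcdh7 and Pcdh17. Pcdh7 had 28.5 CPM in dHet and 18.1 CPM in control suprachiasmatic neurons, against 355 and 305 CPM in Pthlh/Otp neurons. Pomc neurons, which suppress feeding, were neither highest nor lowest in both libraries for any of the 26. They were highest for 1.28% and lowest for 1.47% of all genes, and at these shares this is no result about the members. Tbx19/Cartpt neurons were likewise neither (1.73% and 1.05% of all genes).

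**Figure D2:**
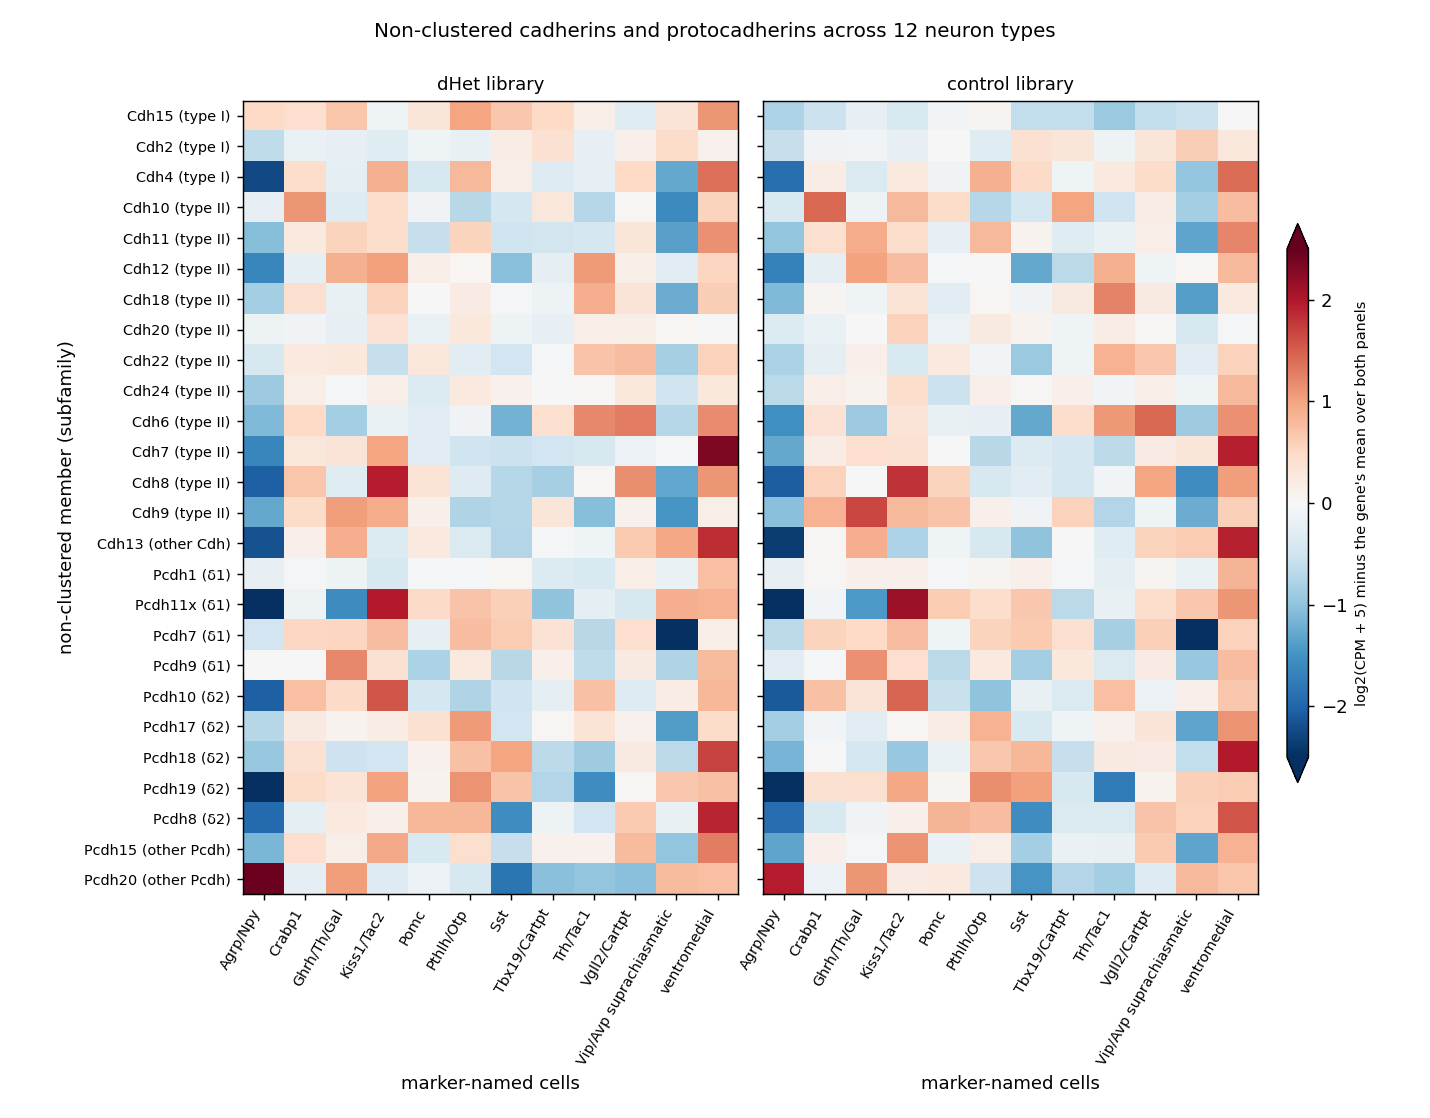
Levels of the 26 non-clustered members (rows) in 12 marker-named neuron types (columns), dHet library left and control library right, as log2(CPM + 5) minus the mean of the gene over both panels. The Agrp/Npy column is blue for most members and red for Pcdh20, and the ventromedial column is red for most, in both panels.

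The type profile of the non-clustered members repeated between the libraries and that of most clustered members did not. Over the 12 types, Pearson's r of log2(CPM + 5) between the dHet and the control library had a median of 0.96 over the 26 non-clustered members (0.53 to 0.99) and was at least 0.9 for 20 of them. Over the 38 clustered members the median was 0.13 (-0.46 to 0.78), and 32 were under 0.5. The 12 points of each r share their library and its depth, and low counts weaken r. Most clustered members had fewer UMIs than the non-clustered ones, and the part of this in their lower r was not tested. Pcdhgc4 had 2439 UMIs and an r of 0.75, Pcdhb17 had 1192 UMIs and 0.25, and Pcdhb14 had 1081 UMIs and 0.77. Cdh15 had the lowest r of the non-clustered members, 0.53. The same type was highest in both libraries for 20 of the 26 non-clustered and 6 of the 38 clustered members.

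**Figure D3:**
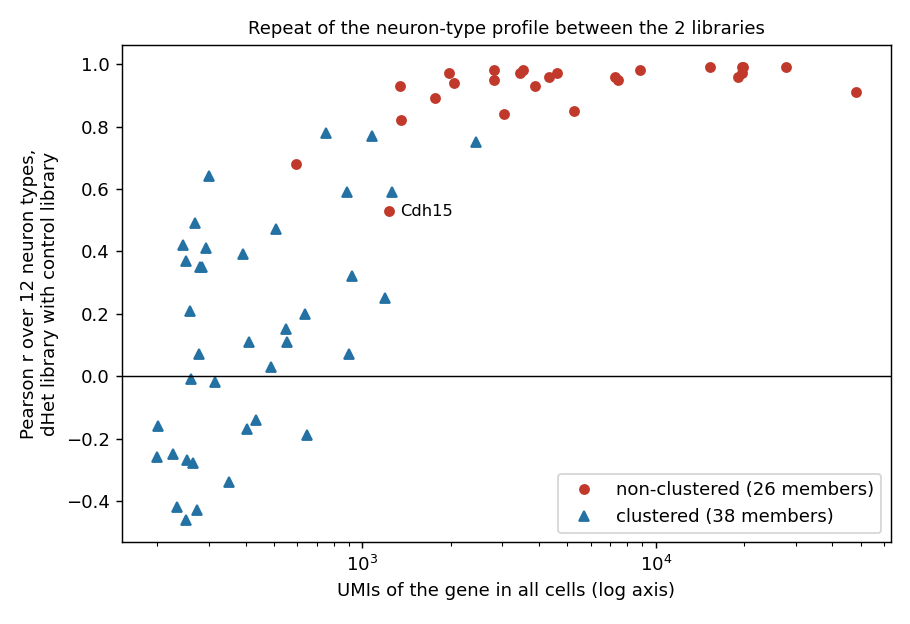
Pearson's r of each member's level over 12 neuron types between the dHet and the control library (vertical), against the gene's UMIs in all cells (horizontal, log axis). The 26 non-clustered members lie from 0.53 to 0.99 and the 38 clustered ones from -0.46 to 0.78.

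Counts of single clustered genes carry a further limit. In GENCODE annotation, 5 of the 6 α and all 12 γ members share their 3′ end with other genes of their cluster, as does 1 of the 20 β members (Pcdhb21), so reads from a 3′ kit may not tell these isoforms apart. Pcdha11.1 is a second row of a symbol that stands for 2 gene models and is uncertain in the same way. The β genes are mostly single-exon genes with ends of their own. Neurons had a mean of 2.55 clustered members with a UMI per dHet cell and 2.54 per control cell, and at most 12 and 10. After thinning each cell to 4000 UMIs, which left out 63 dHet and 77 control neurons, the means were 0.602 and 0.570. At this depth a neuron's full set of isoforms could not be read. In thinned neurons the variance over the mean had a median of 1.06 in dHet and 0.99 in control cells over the clustered members. It was 1.26 and 1.28 over the non-clustered ones. Clustered members were found in at most 8.23% of thinned dHet and 8.46% of thinned control neurons, non-clustered ones in up to 63.3% and 63.0%. For such rare counts this measure lies near 1 in any case, so it cannot compare the 2 sets. Pcdh17, the member with the most UMIs (48018), had the highest variance over the mean, 2.27 in dHet and 2.41 in control neurons. Of the α members with the most UMIs, Pcdha11.1 had 4.97 CPM in dHet and 5.59 CPM in control neurons, Pcdha4 2.40 and 2.42 CPM, and Pcdha5 2.40 and 2.47 CPM. Pcdhb14 had 7.46 CPM in dHet and 6.91 CPM in control neurons, with 17.7 and 19.1 CPM in astrocytes. Pcdhga12 likewise stood at 4.92 CPM in dHet and 4.74 CPM in control neurons and at 18.4 and 28.7 CPM in astrocytes.

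Between the genotypes, 1 of the 64 members stood out in neurons. Cdh15, which encodes M-cadherin, a type I cadherin best known from skeletal muscle and cerebellar granule cells, had 936 UMIs (14.8 CPM) in dHet neurons and 271 UMIs (5.12 CPM) in control neurons. The ratio was 2.89 (2.52 to 3.32). A Cdh15 UMI was found in 21.1% of dHet and 7.86% of control neurons, at median depths of 21243 and 22840 UMIs. In astrocyte-like cells, at medians of 6401 and 5619 UMIs, it was found in 0.703% and 0.239%. All 64 members had at least 50 UMIs in neurons. Cdh15 was the only member past 1.5-fold there on the log2(CPM + 5) scale, where 0.283% of 14495 genes were past it in either direction. Its log2 ratio, 0.97, was the third highest among those genes. The 5 cells with the most Cdh15 UMIs held 2.57% of them. With 20 CPM added in place of 5, its log2 ratio was 0.47 and no member was past 1.5-fold. Over all kept cells it had 949 UMIs in the dHet and 280 UMIs in the control library. It was again the only member of 64 past 1.5-fold there (0.538% of all genes). Irx3 itself had only 2 UMIs (0.0315 CPM) in dHet and 9 UMIs (0.170 CPM) in control neurons. Irx5 had 2 UMIs (0.0315 CPM) and 14 UMIs (0.264 CPM).

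Cdh15 was higher in the dHet library in all 12 neuron types, and the 95% interval of the ratio lay above 1 in 9 of them. Levels ran from 5.51 to 22.8 CPM over the types in the dHet library and from 1.79 to 8.52 CPM in the control library. Ventromedial neurons had 157 UMIs (22.8 CPM) in the dHet and 39 UMIs (7.98 CPM) in the control library, and Pthlh/Otp neurons had 77 (20.8 CPM) and 41 (8.52 CPM). In Agrp/Npy neurons there were 116 UMIs (13.4 CPM) in the dHet and 13 UMIs (2.59 CPM) in the control library, a ratio of 5.18 (2.91 to 10.0). Sst neurons had 58 UMIs (15.8 CPM) and 12 UMIs (3.51 CPM), a ratio of 4.51 (2.40 to 9.22). The smallest ratios were in Kiss1/Tac2 neurons, 1.43 (0.564 to 3.68), Pomc neurons, 1.47 (0.897 to 2.48), and Vgll2/Cartpt neurons, 1.61 (0.746 to 3.52), whose intervals include 1. In the 7 types with at least 50 UMIs it was past 1.5-fold in 6, Pomc neurons being the seventh.

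Cdh15 lies at chr8:122847966-122867397 (plus strand, GRCm38), on the chromosome that also holds Irx3 and Irx5, 30.5 Mb beyond the end of Irx5. Among 23 genes within 500 kb of it that could be compared in neurons, log2 ratios ran from -0.26 to 0.18 and 0 were past 1.5-fold. Of 15 genes higher past 1.5-fold in dHet neurons, 1 (Cdh15) lies on chromosome 8, as do 2 of the 26 lower genes and 5.32% of all genes compared. Cdh8, Cdh11 and Cdh13, members on the same chromosome, had neuronal log2 ratios between -0.19 and 0.04. Whether linkage to the altered Irx3 and Irx5 alleles, the outbred strain or the pool of mice bears on Cdh15 was not tested.

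**Figure D4:**
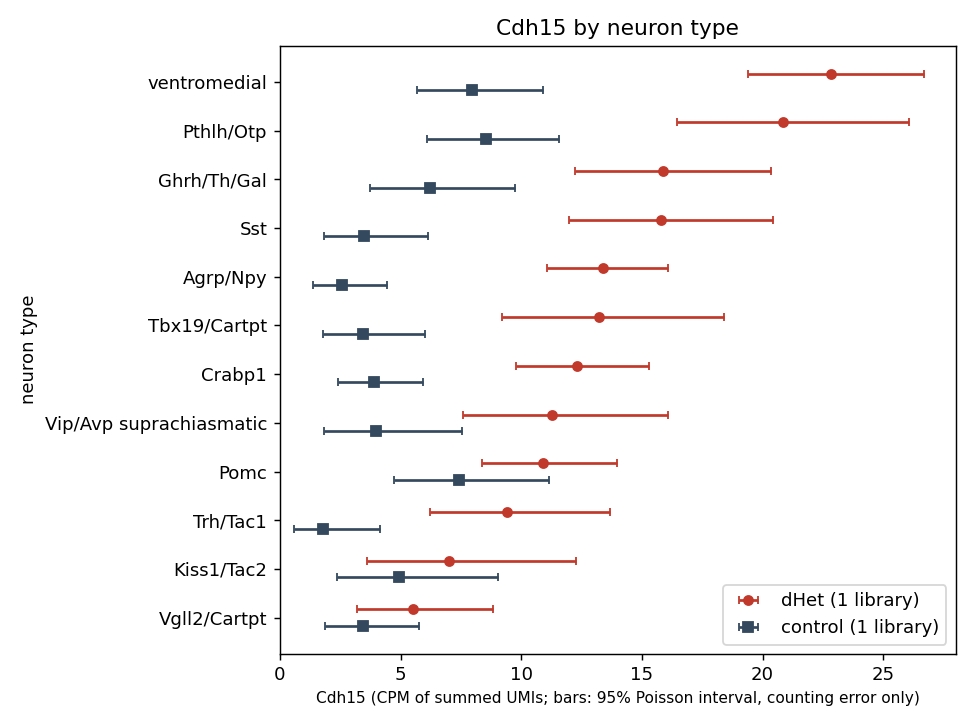
Cdh15 in 12 neuron types (rows), in CPM of summed UMIs, with dHet (circles) above control (squares) in each type and bars for the 95% Poisson interval of counting error. The dHet point is right of the control point in every type, and the bars overlap in the Pomc, Kiss1/Tac2 and Vgll2/Cartpt rows.

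The other neuronal members differed little. Over all 64, the median neuronal log2 ratio was 0.02, with 37 above 0 and 27 below, beside a median of -0.02 over all genes. Of all 14495 genes compared in neurons, 6103 were above 0 and 8392 below. Pcdh17 had 375 CPM in dHet and 387 CPM in control neurons, Cdh2 had 122 and 136 CPM, and Pcdh10 had 136 CPM in both. Pcdh20 had 32.1 CPM in dHet and 24.98 CPM in control neurons. Of the 20 clustered β members, 17 were above 0 and none was past 1.5-fold. Their sum was 85.6 CPM in dHet and 74.4 CPM in control neurons, a ratio of 1.15 (1.10 to 1.20), and the ratio was above 1 in all 12 types, with an interval above 1 in 4 of them. The α sum had a ratio of 0.953 (0.870 to 1.05) and the γ sum one of 0.981 (0.927 to 1.04). Pcdhb7 had the largest β difference, 656 UMIs (10.4 CPM) in dHet and 415 UMIs (7.84 CPM) in control neurons.

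Within single neuron types, 330 pairs of a member and a type had at least 50 UMIs, and 20 of these pairs (6.06%) were past 1.5-fold, where 1.86% of all gene and type pairs were (0.639% higher and 1.22% lower). Without Cdh15, 14 of 323 pairs (4.33%) were past it, 5 higher and 9 lower in the dHet library. Types are compared between 2 libraries only, and a shift between subtypes within a type cannot be told apart from a change in each cell.

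The largest of these in counts was Pcdh17 in ventromedial neurons, where 1.79% of all genes were past 1.5-fold. It had 3080 UMIs (448 CPM) in dHet and 3486 UMIs (713 CPM) in control cells, a ratio of 0.628 (0.598 to 0.659). It was detected in 96.96% of dHet and 95.3% of control cells of this type. Cdh9, a type II cadherin that acts in hippocampal synapse formation, was past 1.5-fold lower in 3 types and had lower CPM in the dHet library in 10 of 12. Ghrh/Th/Gal neurons, which pool 2 clusters, had 101 UMIs (25.5 CPM) in the dHet and 128 UMIs (42.0 CPM) in the control library (1.55% of all genes past 1.5-fold). Pthlh/Otp neurons had 14 UMIs (3.79 CPM) and 54 UMIs (11.2 CPM) (1.18%), and Pomc neurons 65 (11.3 CPM) and 60 (19.4 CPM) (1.65%). The log2 ratio in Ghrh/Th/Gal neurons was -0.63, but with coarser clusters it was 0.33. Without the 5 cells with the most Cdh9 UMIs, which held 21.4% of them, it was -0.25, short of 1.5-fold. In Pomc neurons the log2 ratio was -0.59, just past 1.5-fold, and it was short of that in 7 of 8 alternatives, the smallest being -0.17. Over all neurons Cdh9 had 9.43 CPM in dHet and 13.6 CPM in control cells.

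Vgll2/Cartpt neurons (1.46% of all genes past it) had 3 members past 1.5-fold. Pcdh11x had 114 UMIs (36.9 CPM) in dHet and 286 UMIs (70.0 CPM) in control cells of this type, but in the matrices' barcodes its log2 ratio there was 0.10. Pcdh20 had 20 (6.48 CPM) and 57 (14.0 CPM). Pcdhb7 was higher, with 50 UMIs (16.2 CPM) and 37 UMIs (9.06 CPM). In Kiss1/Tac2 neurons (3.33%) Cdh4 had 158 UMIs (92.3 CPM) in dHet and 115 UMIs (56.6 CPM) in control cells, a ratio of 1.63 (1.28 to 2.09), and Cdh7 had 63 (36.8 CPM) and 46 (22.6 CPM). The log2 ratio of Cdh4 there, 0.66, ran from 0.02 to 1.01 over the alternatives, and that of Cdh7, 0.60, from 0.41 to 0.72. Pcdh8 was lower in suprachiasmatic neurons (3.42%), with 97 UMIs (36.4 CPM) in dHet and 148 UMIs (65.4 CPM) in control cells. Its log2 ratio there, -0.77, ran from -1.15 to -0.50 over the alternatives.

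Cdh10 was lower in Tbx19/Cartpt neurons (1.94%), at a ratio of 0.568 (0.418 to 0.764). Its log2 ratio there, -0.71, ran from -0.80 to -0.34 over 6 alternatives, so it was not past 1.5-fold in each. Cdh10 had 65 UMIs (24.6 CPM) in dHet and 151 UMIs (43.3 CPM) in control cells of this type. It was also lower in neuron cluster 5, which stayed without a type (3.88%), with 14 UMIs (6.50 CPM) in dHet and 46 UMIs (18.6 CPM) in control cells, and Cdh15 was higher there, with 46 and 7 UMIs. Cdh11 was lower in Sst neurons (1.29%), with 42 UMIs (11.5 CPM) in dHet and 68 UMIs (19.9 CPM) in control cells. Its log2 ratio there, -0.60, ran from -0.83 to -0.33 over 6 alternatives. The remaining 2 pairs were clustered β members on fewer than 100 UMIs, Pcdhb21 in Pomc and Pcdhb17 in Trh/Tac1 neurons (2.8% of all genes past it), both higher in the dHet library. In Agrp/Npy (1.75%) and Crabp1 neurons (0.755%) Cdh15 was the only member past 1.5-fold.

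In astrocyte-like cells most members were lower in the dHet library. Of 21 members with at least 50 UMIs, 17 had a log2 ratio below 0, where 4963 of all 9412 genes had. The median of the members was -0.19 beside -0.02 over all genes, and 1 was past 1.5-fold, where 3.97% of all genes were. That one was Pcdh1, a δ1-protocadherin, with 67 UMIs (23.7 CPM) in dHet and 129 UMIs (51.4 CPM) in control astrocytes, a ratio of 0.462 (0.339 to 0.625). In neurons Pcdh1 had 22.1 CPM in dHet and 23.8 CPM in control cells. The 7 members that led in astrocytes all had a log2 ratio below 0 there, Cdh11 with 383 and 469 UMIs in dHet and control cells (ratio 0.726, 0.633 to 0.833), Cdh10 with 446 and 489 (0.811, 0.712 to 0.924) and Pcdh10 with 1065 and 1083 (0.875, 0.803 to 0.953). Summed over all 64 members, dHet astrocytes had 2108 CPM and control astrocytes 2436 CPM, a ratio of 0.865 (0.835 to 0.897). The summed neuron markers, 565 and 409 CPM, and the median depth, 6401 and 5619 UMIs, were also higher in dHet astrocytes, as were the summed markers of mural cells (75.8 and 47.0 CPM), and their part in the result was not tested. In these cells Irx3 had 7.44 CPM in dHet and 24.3 CPM in control cells, and Irx5 had 23.7 and 42.2 CPM.

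In tanycyte-like cells the members were evenly split. Of 20 with at least 50 UMIs, 10 lay above 0 and 10 below, beside 4708 and 5402 of all 10110 genes. Past 1.5-fold were 2, where 3.14% of all genes were. Cdh13 had 51 UMIs (19.9 CPM) in dHet and 42 UMIs (11.02 CPM) in control tanycytes, a ratio of 1.81 (1.18 to 2.79). Pcdhga10, whose 3′ end is shared, had 14 UMIs (5.47 CPM) in dHet and 42 UMIs (11.02 CPM) in control tanycytes. Neither was past 1.5-fold in the matrices' barcodes, at Leiden resolution 2, with cells thinned or with 20 CPM added. The leading tanycyte cadherin, Cdh2, had 908 UMIs (355 CPM) in dHet and 1363 UMIs (358 CPM) in control tanycytes, a ratio of 0.991 (0.910 to 1.08). Oligodendrocyte-lineage, ependymal, cycling and pars tuberalis or pituitary-like cells had fewer than 100 cells in a library and were not compared.

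**Figure D5:**
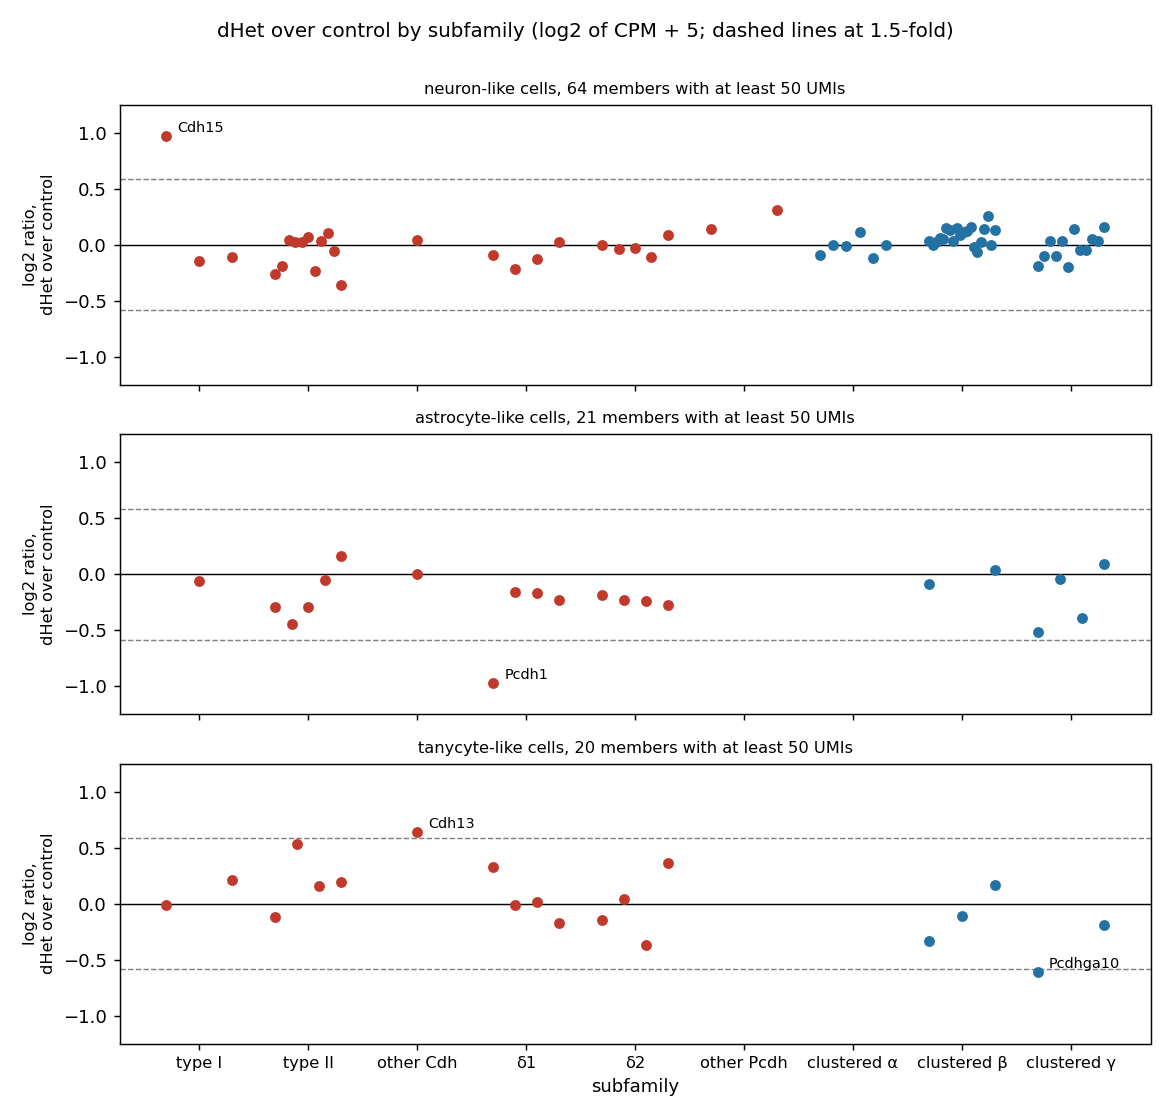
Log2 ratio of dHet over control for members with at least 50 UMIs, by subfamily, in neuron-like (64 members), astrocyte-like (21) and tanycyte-like cells (20). Dashed lines mark 1.5-fold on the log2(CPM + 5) scale. Cdh15 lies above the line in neurons, Pcdh1 below it in astrocytes, and Cdh13 above and Pcdhga10 below it in tanycytes.

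Genes that work with cadherins were also counted. Of 12 catenins and junction partners, 11 could be compared in neurons and 0 were past 1.5-fold, where 0.283% of all genes were. The count was also 0 among 16 comparable of 19 other cadherin superfamily genes and 13 genes that control clustered protocadherin choice. It was 0 too among 8 WAVE complex genes and 7 genes of cadherin proteolysis. At that share these counts are no result about the lists. Within single types, Ret was past 1.5-fold lower in dHet ventromedial neurons (33 and 51 UMIs, ratio 0.460, 0.287 to 0.726). So were 1 WAVE complex gene there (1.79% of all genes past it) and 1 catenin or junction partner in Trh/Tac1 neurons (2.8%). β-catenin (Ctnnb1) had 177 CPM in dHet and 186 CPM in control neurons. CTCF, which anchors the promoter choice of the clusters, had 66.0 CPM in dHet and 71.6 CPM in control neurons, and Setdb1, a histone methyltransferase that acts on the clusters, had 18.7 and 21.2 CPM. In astrocyte-like cells 7 of 9 catenins and junction partners lay below 0, where 4963 of all 9412 genes did. Their median log2 ratio was -0.19 beside -0.02 over all genes. Ctnnd1 (p120-catenin, which holds classical cadherins at the membrane) had 56 UMIs (19.8 CPM) in dHet and 85 UMIs (33.9 CPM) in control astrocytes, and Fat1, a giant atypical cadherin, had 113 (40.0 CPM) and 162 (64.5 CPM), both past 1.5-fold. In tanycytes Clstn2, a calsyntenin, was past 1.5-fold with 46 UMIs in dHet and 39 UMIs in control cells.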

How the data were processed

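Raw UMI counts were used as deposited. Per the file headers and the submitters' processing notes, the authors counted UMIs with Cell Ranger 3.0.2 on genome build mm10, and no label or header names the gene annotation. The merged table of counts (20210 genes, 3939 dHet and 3479 control columns) was the main source. Its values equalled the matrices but for 1483 of 34056938 non-zero entries, each 0 in the merged table. The matrices share 5 barcodes, of which 4 are in the merged table.

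Scrublet in scanpy 1.11.5 (expected rate 4%) removed 21 dHet and 23 control columns. After library-size scaling to 10000 and a log transform, clustering used 2000 variable genes without any Cdh or Pcdh gene, 30 components, 15 neighbours and Leiden resolution 1. A cluster was named by likeness to marker lists, and 5 neuron clusters stayed without a type. Levels are summed UMIs per 1000000 (CPM). A member counted as past 1.5-fold when log2 of (dHet CPM + 5) over (control CPM + 5) reached that size with at least 50 UMIs in both libraries together. Classes and types had at least 20 cells per library, and 100 for a comparison of genotypes. Poisson and conditional binomial intervals are exact, at 95%. There was no test across animals, and no p-value is given. The ratio and highest-class steps were tested on simulated data. Positions are from GENCODE for GRCm38.

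The members, the gene lists and the tests were chosen with earlier results of these data known. Named in full are members at least 2-fold above the next class or type, members past 1.5-fold in a compared class on at least 100 UMIs, and the most counted members of each subfamily. Pcdh20, Cdh13, Pcdhga10, Clstn2 and members named on fewer UMIs were chosen after their values were seen. Alternatives changed the set of barcodes, doublet removal, clustering resolution, pseudocount, depth, weighting and the UMI minimum.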

Additional observations from a re-analysis of the deposited data

Results flagged for a closer look

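Barcodes that the merged table leaves out were not part of the comparisons. In the deposited matrices these were 339 dHet barcodes with a median of 4469 UMIs and 215 control barcodes with a median of 48718 UMIs. Cdh15 had 73 UMIs (13.4 CPM, 10.5 to 16.8) in the dHet and 56 UMIs (6.94 CPM, 5.24 to 9.01) in the control barcodes, a ratio of 1.93 (1.34 to 2.78). The value was singled out because it lies in data outside the main measurement and above the control level. The unlike depths of the 2 sets were not adjusted for.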

How the results depend on the processing

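No paired analysis was possible because there was 1 library per genotype. Of the members past 1.5-fold between dHet and control, neurons had 1 (Cdh15) and had 0 with 20 CPM added. Astrocytes had 1 (Pcdh1), and 3 with doublets kept, 2 with cells thinned to 4000 UMIs and 3 with cells weighted equally, Pcdh1 among them each time. Tanycytes had 2, and 0 in the matrices' barcodes, with 20 CPM added or with at least 100 UMIs, and 1 thinned (Cdh24) or weighted equally (Cdh13). The tanycyte 2 were Cdh13 and Pcdhga10, but Cdh22 and Pcdh18 at Leiden resolution 2 and Pcdh17 and Pcdhga10 with doublets kept. Members at least 2-fold above the next class numbered 2, and 8 at Leiden resolution 0.5, 1 with 20 CPM added and 1 with cells weighted equally. Above the next neuron type there were 2, and 1 with 20 CPM added (Cdh7), 3 with cells weighted equally (Cdh7, Cdh13, Pcdh8), and other pairs in the matrices' barcodes (Cdh7, Cdh10) and at Leiden resolution 0.5 (Cdh7, Pcdh20). The log2 ratio turned to 0.33 for Cdh9 in Ghrh/Th/Gal neurons at Leiden resolution 0.5 and to 0.10 for Pcdh11x in Vgll2/Cartpt neurons in the matrices' barcodes. The cause of these changes was not tested. Over the alternatives the log2 ratio of Cdh15 in neurons ran from 0.47 to 1.01, that of Pcdh1 in astrocytes from -1.20 to -0.71 and that of Pcdh17 in ventromedial neurons from -0.73 to -0.55. Leaving out the 5 cells with the most UMIs of the gene, a choice made after seeing the data, kept the direction of all 16 named ratios and left 10 past 1.5-fold, and adding 20 CPM kept all 16 directions and left 5. Counts of clustered isoforms were limited by depth and shared 3′ ends.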
